A study of Mus musculus with 4 samples.

Results

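The TREM receptors (triggering receptors expressed on myeloid cells) and their signalling partner Tyrobp were followed here through sorted liver myeloid cells of mice on 2 diets. The 5 genes Trem1, Trem2, Trem3, Treml4 and Tyrobp were taken by symbol, and all 5 were found among the 27998 genes counted in the 4 libraries. Male wild-type C57BL/6 mice, 8 weeks old and matched for weight at purchase, received control food (NCD) or food without methionine and choline (MCD), a diet used to produce fatty liver with inflammation, for 6 weeks. Single cells of the liver were profiled as droplet 3′ libraries, 2 per diet, after a sort for live (7AAD-negative) CD45+ Ly6G- cells of intermediate CD11b. The F4/80 gate is given as low in one place of the labels and as high in another, and whether a library holds 1 mouse or several is not stated in the labels. All mice were wild type, and no label gives a batch, so diet and any batch cannot be told apart.

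TREM proteins are immunoglobulin-like receptors of myeloid cells with a short tail that cannot signal alone. In the membrane they pair with Tyrobp (also called DAP12), a small adaptor whose tyrosine motif, once phosphorylated, recruits the kinase Syk, and phospholipase C, PI3 kinase and MAP kinase branches follow. Trem1 amplifies inflammatory signals in neutrophils and monocytes. Trem2 binds lipids and lipoproteins and marks lipid-handling macrophages of fatty liver, adipose tissue and brain. Treml4 binds dead cells and is known from non-classical monocytes and spleen macrophages, and Trem3 is a further Tyrobp-coupled receptor of the mouse.

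The 4 receptor genes stand in 1 cluster and on 1 strand. On GRCm38 (GENCODE M21), Trem1 (ENSMUSG00000042265) lies on chromosome 17 from 48232768 to 48246924, Trem3 (ENSMUSG00000041754) from 48247777 to 48258841, Treml4 (ENSMUSG00000051682) from 48264295 to 48275360 and Trem2 (ENSMUSG00000023992) from 48346401 to 48354147, all on the plus strand. Trem3 begins 852 bases after the end of Trem1, and Treml4 begins 5453 bases after the end of Trem3. A gene on the opposite strand (AC241601.2) overlaps Trem1. Tyrobp (ENSMUSG00000030579) lies apart, on chromosome 7 from 30413760 to 30417585, and its end faces that of Hcst, the gene of a sister adaptor on the other strand, 126 bases away. The labels do not state the strand setting of the authors' counting. The counts were used as given, and the part of such neighbours in them was not tested.

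The 250 bases before the RefSeq start are shown for Trem1 and Trem2, whose transcripts rose on the MCD diet in the combined monocyte and macrophage classes, and for Treml4, whose transcripts did not rise there (RefSeq windows, GRCm38.p6, plus strand, chr17:48232489-48232738, chr17:48346151-48346400 and chr17:48264045-48264294). RefSeq windows were found for 3 of the 5 genes. The start meant here is the RefSeq start, the base after each window, and for Trem1 it lies before the GENCODE start given above. Capitals mark matches on either strand to GAGGAA (a PU.1-type core), TGANTCA (AP-1) or TTNCNNAA (C/EBP-type), and no matches overlapped.
Trem1: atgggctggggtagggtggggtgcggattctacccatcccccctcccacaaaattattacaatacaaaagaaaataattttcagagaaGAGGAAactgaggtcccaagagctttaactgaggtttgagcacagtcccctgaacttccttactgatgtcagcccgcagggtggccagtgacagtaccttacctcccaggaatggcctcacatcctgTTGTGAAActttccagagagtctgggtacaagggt
Trem2: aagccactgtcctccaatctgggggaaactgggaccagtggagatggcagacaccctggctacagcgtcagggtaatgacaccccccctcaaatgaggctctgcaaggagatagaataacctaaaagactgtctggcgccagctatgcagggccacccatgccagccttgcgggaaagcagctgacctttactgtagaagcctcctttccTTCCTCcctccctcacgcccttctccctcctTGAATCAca
Treml4: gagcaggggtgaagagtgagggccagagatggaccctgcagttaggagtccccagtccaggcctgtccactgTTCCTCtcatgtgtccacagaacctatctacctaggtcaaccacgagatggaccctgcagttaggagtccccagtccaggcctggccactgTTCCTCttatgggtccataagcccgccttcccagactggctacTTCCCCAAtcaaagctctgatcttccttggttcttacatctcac
The Trem1 window holds 1 GAGGAA and 1 TTNCNNAA, whose first base stands 35 bases before the start. The Trem2 window holds 1 GAGGAA and, 9 bases before the start, 1 TGANTCA. The Treml4 window holds 2 GAGGAA and 1 TTNCNNAA. Of 32851 windows of the same length, 23.3% hold GAGGAA, 6.75% TGANTCA and 36.8% TTNCNNAA, so each match is a description of the sequence and no more.

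The libraries differed in depth and quality by diet. They held 2783 and 2699 barcodes (NCD replicates 1 and 2) and 3349 and 3475 barcodes (MCD), with 7518597, 7428431, 32975974 and 37772284 UMIs (counted molecules), and 4 to 12 barcodes were shared by any pair of libraries. After filtering, 9600 cells remained, with median depths of 2175 and 2258 UMIs in NCD and 12042 and 12301 UMIs in MCD. More than 10% mitochondrial UMIs were found in 33.6 to 37.2% of NCD barcodes and 9.44 to 11.6% of MCD barcodes. The labelled sort held 4042 cells of monocyte-like or macrophage-like classes (39.3 to 45.0% of a library), and the leukocyte gene Ptprc, Itgam (CD11b) and Adgre1 (F4/80) were present in them, at 927 to 1092, 235 to 329 and 97.3 to 139 CPM (a class's UMIs scaled to a common total) in Ly6Chi monocyte-like cells. Other classes were cDC2-like, migratory DC-like, endothelial cell-like, eosinophil-like, basophil-like, NK cell-like and B cell-like cells. In the Ly6Chi monocyte-like cells of NCD replicate 1, 12 neutrophil markers summed to 9094 CPM, against 194, 470 and 441 CPM in the other 3 libraries.

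Treml4 and Trem3 were high in, but not confined to, the Ly6Clo monocyte-like cells, the counterpart of patrolling monocytes. Treml4 reached 209.9 and 253 CPM there in NCD and 183 and 220.2 CPM in MCD, its highest level on either diet, against 34.6, 29.1, 37.0 and 29.6 CPM in Ly6Chi monocyte-like cells, the counterpart of inflammatory monocytes. All 4 libraries put the Ly6Clo value above the Ly6Chi value, and the classes did not overlap. Trem3 followed the same order, at 85.2, 90.6, 78.5 and 97.7 CPM in Ly6Clo and 23.8, 29.1, 54.9 and 41.7 CPM in Ly6Chi monocyte-like cells. In MCD, unnamed cluster 7, led by Saa3, Clec4e, Tlr2 and Marcksl1, stood close to the Ly6Clo class, with 190.5 and 169 CPM of Treml4 and 104 and 100.3 CPM of Trem3. Its Treml4 range overlapped that of the Ly6Clo class, and its Trem3 range lay above it. Endothelial cell-like cells came next after the Ly6Clo class in NCD, at 89.6 and 84.9 CPM of Treml4 and 30.4 and 30.3 CPM of Trem3. They held 39.6 and 44.7% of the Treml4 UMIs of the NCD libraries, against 33.9 and 34.2% in the Ly6Clo class. Lipid-associated macrophage-like cells of MCD held 109 and 105 CPM of Treml4.

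Trem2 had its highest level in macrophage-like cells. Lipid-associated macrophage-like cells, which were named without Trem2 and were almost absent from NCD libraries (2 and 5 cells), held 183 and 177 CPM of Trem2 in MCD, above the 128 and 103 CPM of Ly6Clo and the 86.8 and 82.0 CPM of Ly6Chi monocyte-like cells in the same libraries. In NCD the highest mean was that of C1q macrophage-like cells, 42.3 CPM, from 67.9 and 16.7 CPM. These rest on 12 and 2 UMIs, and their range overlaps the 22.7 and 26.1 CPM of Ly6Chi monocyte-like cells. Ly6Clo monocyte-like cells held only 10.4 and 6.32 CPM of Trem2 in NCD, from 5 and 3 UMIs.

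Trem1 was highest in the monocyte-like classes and in unnamed clusters of the MCD libraries. Unnamed clusters 7 (69.7 to 101 CPM), 9 (64.2 to 86.8 CPM) and 17 (76.8 CPM, 1 library) lay inside the range of Ly6Clo monocyte-like cells. Ly6Chi monocyte-like cells held 80.8 and 113 CPM in MCD and Ly6Clo monocyte-like cells 61.3 and 107 CPM, and the ranges of these classes overlap. Lipid-associated macrophage-like cells held 14.0 and 23.5 CPM, below both. Eosinophil-like cells of MCD held 31.7 and 45.4 CPM, with 42 and 33 UMIs. In NCD no class exceeded the 18.7 and 19.0 CPM of Ly6Clo monocyte-like cells, and Ly6Chi monocyte-like cells held 3.24 and 8.03 CPM, from 3 and 8 UMIs.

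Tyrobp was present in every class at levels of another order. Ly6Chi monocyte-like cells held 2829.9 and 2789.6 CPM in NCD and 3352 and 3218 CPM in MCD. Basophil-like cells of NCD (2706 and 3138 CPM) and NK cell-like cells of MCD replicate 1 (2241 CPM), types in which Tyrobp serves other receptors, were also rich in it, while their 4 TREM genes together gave 0, 1 and 2 UMIs. Lipid-associated macrophage-like cells held 2111 and 2112 CPM. The lowest levels among named classes were those of B cell-like cells in MCD (972 and 419 CPM) and of migratory DC-like, eosinophil-like and endothelial cell-like cells in NCD (679 to 913 CPM).

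**Figure D1:**
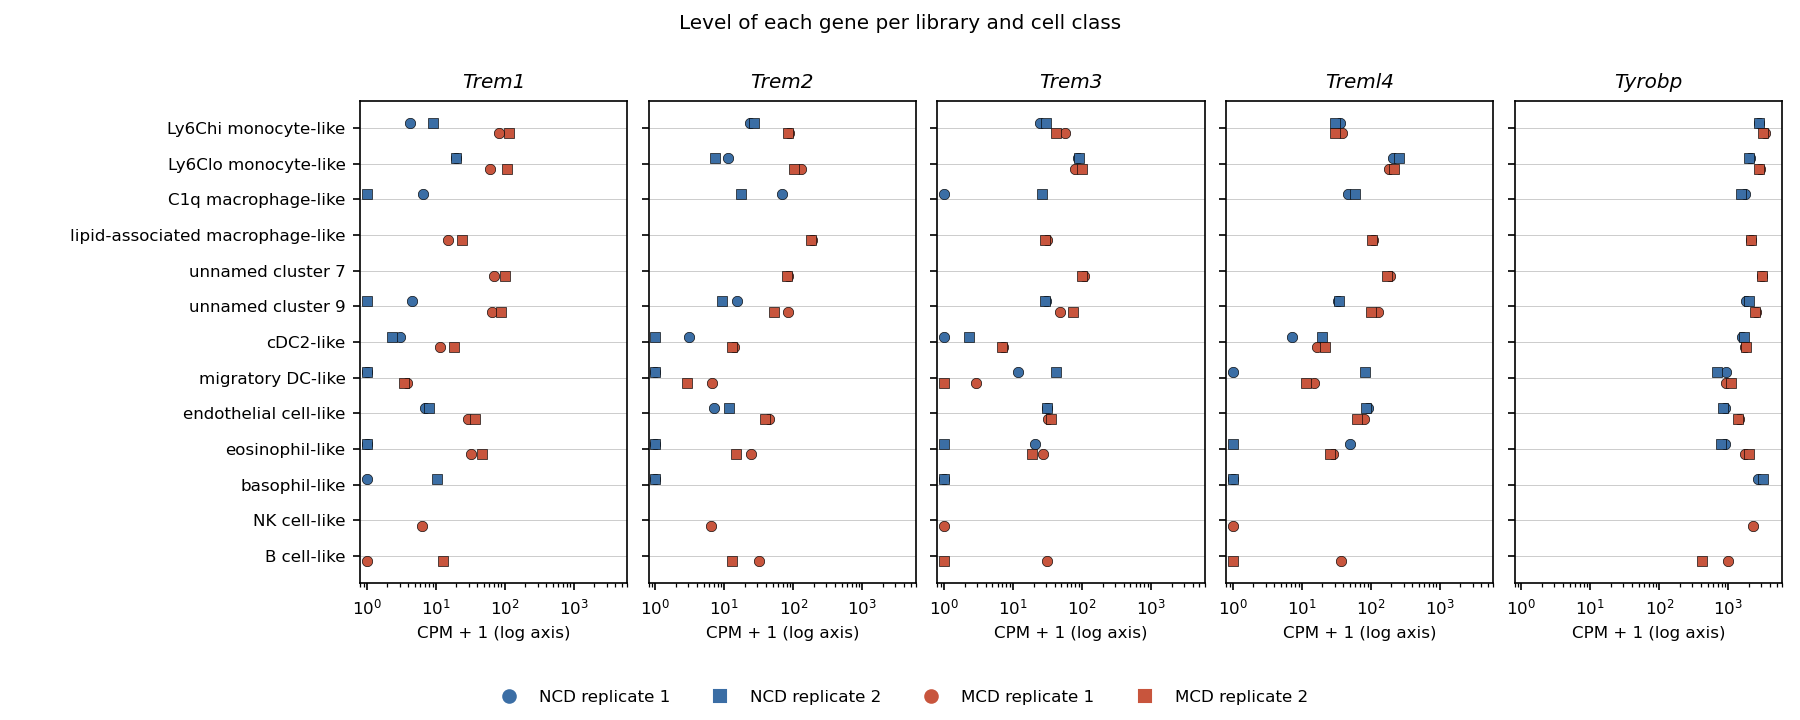
Level of each gene (CPM + 1, log axis) in each cell class, 1 point per library with at least 20 cells of the class, blue for NCD and red for MCD. Treml4 and Trem3 peak in Ly6Clo monocyte-like cells and unnamed cluster 7, Trem2 is highest in lipid-associated macrophage-like cells (183 and 177 CPM), and Tyrobp exceeds the receptors in every class.

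The UMIs of the 4 receptor genes were also set against each other and against Tyrobp, as transcripts, since pairing of the proteins was not measured. Among receptor UMIs of Ly6Clo monocyte-like cells in NCD, Treml4 made up 64.7 and 68.6% and Trem2 3.21 and 1.71% (95% exact binomial intervals for Trem2, 1.05 to 7.32% and 0.355 to 4.93%). In MCD the share of Treml4 was 40.5 and 41.7% and that of Trem2 28.4 and 19.5%. In Ly6Chi monocyte-like cells Trem1 made up 3.85 and 8.70% of receptor UMIs in NCD and 31.1 and 42.5% in MCD, with no overlap of the diets. In lipid-associated macrophage-like cells of MCD, Trem2 made up 54.5 and 53.02%. In C1q macrophage-like cells of NCD it made up 57.1 and 16.7%, from 21 and 12 receptor UMIs.
Tyrobp UMIs per receptor UMI stood at 33.6 and 30.2 in NCD and 12.9 and 12.1 in MCD in Ly6Chi monocyte-like cells. In Ly6Clo monocyte-like cells this ratio was 6.26 and 5.33 in NCD and 6.37 and 5.32 in MCD, so there the diets overlapped. These are ratios of counts without correction for transcript length, and the intervals cover counting error only.

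**Figure D2:**
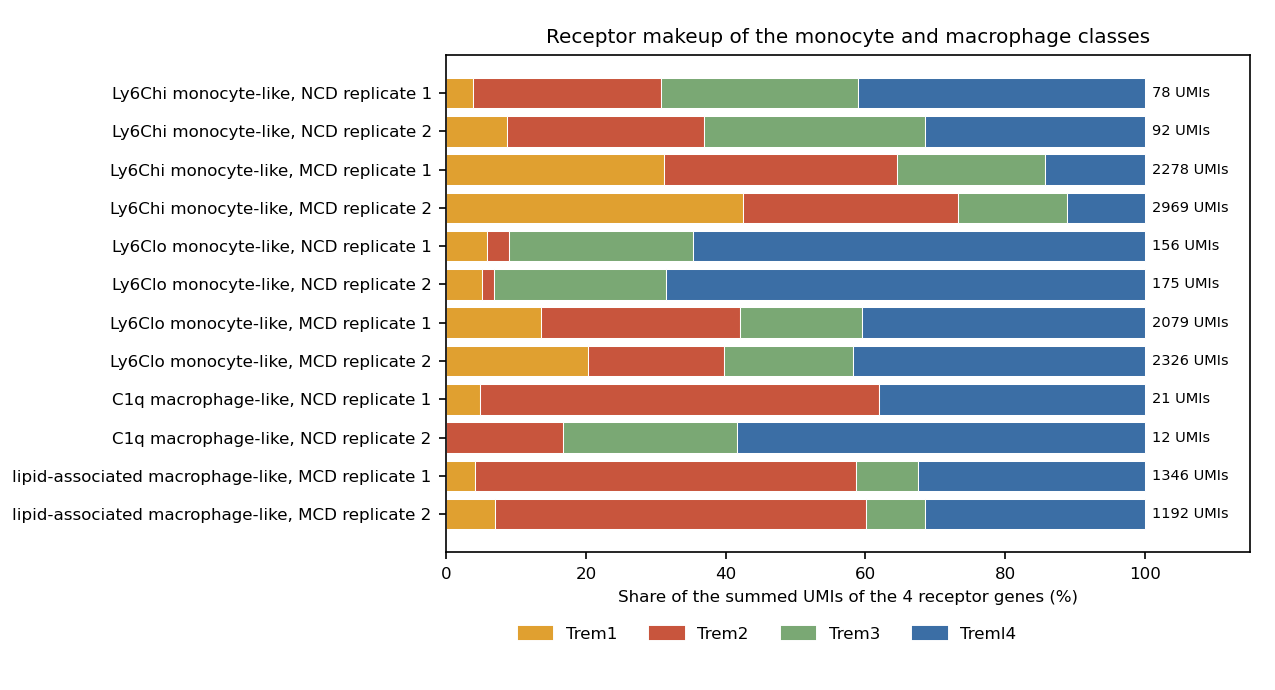
Share of each receptor gene in the summed UMIs of Trem1, Trem2, Trem3 and Treml4, 1 bar per class and library, with the number of UMIs at its right. Treml4 takes most of the NCD Ly6Clo bars (64.7 and 68.6%), Trem1 widens in the MCD Ly6Chi bars (31.1 and 42.5%), and C1q macrophage-like bars rest on 21 and 12 UMIs.

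The first question of the design was how the diets differ in the monocyte and macrophage classes combined. Trem1 and Trem2 rose in MCD, Tyrobp and Trem3 did not pass the test, and Treml4 passed as lower. UMIs were summed per library and tested with the edgeR quasi-likelihood F test across all genes, with TMM scaling and Benjamini-Hochberg adjustment, and values are TMM-scaled CPM. Of 10966 genes tested, 38.1% were called at an adjusted p under 0.05 (19.9% higher and 18.2% lower in MCD), so 3 calls among 5 genes stand against a high background.
Trem2 was at 27.9 and 21.5 in NCD and 104 and 93.6 in MCD. Both MCD libraries were above both NCD libraries, a log2 rise of 2.00 ± 0.16 (SE), with an adjusted p of 4.52e-05.
Trem1 was at 9.55 and 11.8 in NCD and 52.0 and 85.1 in MCD, with MCD replicate 2 the highest library. The diets did not overlap, and the log2 rise was 2.68 ± 0.35 (adjusted p 0.000571).
Tyrobp was at 2864 and 2712 in NCD and 2539 and 2611 in MCD, a log2 difference of -0.11 ± 0.08 with an adjusted p of 0.284. With library totals in place of TMM factors the same difference was 0.26 and passed the test (adjusted p 0.00922), and it was -0.51 (adjusted p 0.00139) with a trend on GC content removed.
Trem3 was at 46.3 and 52.0 in NCD and 47.9 and 46.6 in MCD, which overlap (log2 difference -0.06 ± 0.13, adjusted p 0.752).
Treml4 was at 104 and 108 in NCD and 79.6 and 78.5 in MCD, a log2 difference of -0.42 ± 0.10 with an adjusted p of 0.0135. That call was lost under 9 of 20 alternatives, among them library totals (-0.049), a floor of 500 genes per cell (-0.23) and equal weight to each class (-0.17), and with the unnamed clusters included the difference was 0.21. No direction is therefore drawn for Treml4.
The scaling matters for small differences, since the median log2 difference of all genes was 0.03 with TMM and 0.40 with library totals, and calls split into 2182 higher and 1991 lower with TMM and 3936 and 993 with totals.

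Within Ly6Chi monocyte-like cells Trem1 had the larger rise. It went from 4.05 and 9.22 to 66.7 and 96.6 TMM-scaled CPM, a log2 rise of 3.58 ± 0.36 (edgeR adjusted p 1.15e-05), in a comparison in which 30.5% of 9815 genes were called (15.4% higher and 15.1% lower). The NCD values rest on 3 and 8 UMIs. Without NCD replicate 1, the library with the high neutrophil markers, the rise was 3.17 (adjusted p 0.00383), and without NCD replicate 2 it was 4.36 (adjusted p 0.00304).
Trem2 stood at 28.3 and 29.97 in NCD and 71.7 and 69.9 in MCD, a log2 rise of 1.28 ± 0.18 (adjusted p 0.000223).
Tyrobp stood at 3535 and 3205 in NCD and 2769 and 2741 in MCD. The log2 difference of -0.29 ± 0.10 missed the threshold (adjusted p 0.0520), passed it in the same direction in 8 of 16 alternatives, and was 0.23 with library totals (adjusted p 0.0219).
Trem3 was at 29.7 and 33.4 in NCD and 45.4 and 35.5 in MCD (log2 0.35 ± 0.22, adjusted p 0.265). Treml4 was at 43.2 and 33.4 in NCD and 30.6 and 25.2 in MCD (log2 -0.45 ± 0.22, adjusted p 0.143). Neither passed the test.

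Within Ly6Clo monocyte-like cells Trem2 had the larger fitted rise. Trem2 went from 11.5 and 6.92 to 116 and 95.2 TMM-scaled CPM, a log2 rise of 3.51 ± 0.34 (edgeR adjusted p 0.000206), with 21.8% of 9108 genes called (11.5% higher and 10.3% lower). In UMIs this is 5 and 3 in NCD against 591 and 453 in MCD.
Trem1 rose from 20.7 and 20.8 to 55.6 and 99.0, a log2 rise of 1.89 ± 0.49 (adjusted p 0.0255) that missed the threshold without MCD replicate 2 (1.43, adjusted p 0.0520).
Tyrobp rose slightly, from 2247 and 2150.0 to 2599 and 2599.5, a log2 rise of 0.24 ± 0.07 (adjusted p 0.0486). This call was lost in 11 of 15 alternatives, in one of which, the removal of the GC trend, the difference was -0.16.
Trem3, at 94.4 and 99.2 in NCD and 71.1 and 90.6 in MCD, and Treml4, at 232 and 277 in NCD and 166 and 204 in MCD, did not pass (log2 -0.26 ± 0.20 and -0.46 ± 0.16, adjusted p 0.386 and 0.0669).

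**Figure D3:**
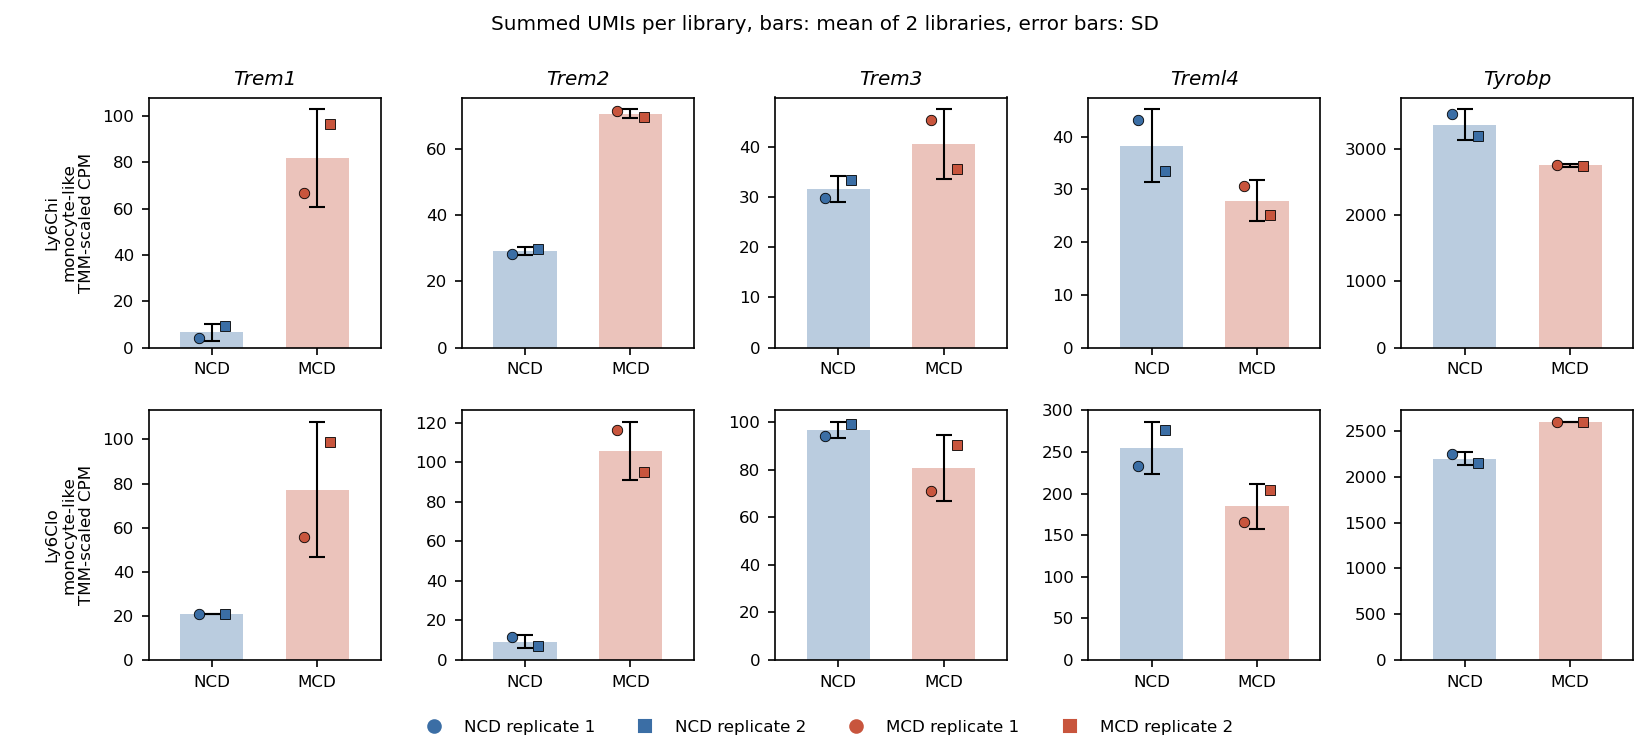
TMM-scaled CPM of each gene in Ly6Chi (upper row) and Ly6Clo (lower row) monocyte-like cells, points for libraries, bars for the mean of 2 libraries and error bars for the SD. Trem1 and Trem2 are higher in both MCD libraries in both classes, and in NCD Trem2 in Ly6Clo cells stood at 11.5 and 6.92.

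The difference between these responses was tested as a class by diet term with library as a block, in which 6.58% of 9614 genes were called (4.71% higher and 1.87% lower). The diet effect on Trem2 was larger in Ly6Clo than in Ly6Chi monocyte-like cells by 2.23 ± 0.44 on the log2 scale (edgeR adjusted p 0.000127). That on Trem1 was smaller in Ly6Clo cells, by -1.73 ± 0.51 (adjusted p 0.0299), but lost its call in 9 of 14 alternatives. For Tyrobp the difference was 0.52 ± 0.09 (adjusted p 9.67e-06), called in all 14 alternatives (0.28 to 0.59). Trem3 (-0.62 ± 0.28, adjusted p 0.211) and Treml4 (-0.03 ± 0.23, adjusted p 0.989) did not pass. Without NCD replicate 2 the Trem1 term was -2.43 (adjusted p 0.102). The Trem2 term missed the threshold without NCD replicate 2 (1.89, adjusted p 0.0634) and with cells thinned to 1000 UMIs (2.59, adjusted p 0.0681). Different clusters hold each class in each diet: 99.5% of MCD and 0.993% of NCD Ly6Chi monocyte-like cells lay in cluster 0, and 99.6% of MCD and 4.18% of NCD Ly6Clo monocyte-like cells in cluster 3.

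Markers of lipid-associated macrophages moved with Trem2 in cells outside that class. The 12 markers of that list summed to 1030.45 and 1026 CPM in NCD and 3354 and 3423 CPM in MCD in Ly6Chi monocyte-like cells, with at most 2 markers at 0 in a library. In Ly6Clo monocyte-like cells they summed to 919 and 758 CPM in NCD and 2793 and 2718 CPM in MCD, and Gpnmb, a marker of the list, was at 0 in both NCD libraries and at 9.32 and 14.96 CPM in MCD. In both NCD and MCD at most 4 of the 12 were at 0 in a library of that class. The 11 Kupffer cell markers went from 273 to 274 CPM in NCD to 836 to 909.5 CPM in MCD in Ly6Chi monocyte-like cells. In Ly6Clo monocyte-like cells they summed to 239 and 198 CPM in NCD and 1148 and 894 CPM in MCD. The markers of the monocyte classes moved in that class too. The 12 Ly6Chi monocyte markers summed to 9033 and 8884 CPM in NCD and 18784 and 22558 CPM in MCD, and the 12 Ly6Clo monocyte markers to 6712 and 7829 CPM in NCD and 4443 and 5329 CPM in MCD. Cd300e, one of the latter, stood at 258 and 289 CPM in NCD and 39.0 and 40.1 CPM in MCD. The part of these markers in the Trem1 and Trem2 results was not tested. With lipid-associated macrophage-like cells left out of the combined classes, the log2 rise of Trem2 was 1.75 and that of Trem1 2.94.

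The macrophage-like classes could be compared only together, because C1q macrophage-like cells had 65 and 47 cells in NCD and 2 and 1 in MCD. The lipid-associated class of MCD was itself led by C1qb, C1qa, Ccl24 and C1qc, so its cells held C1q genes too. Trem2 rose from 70.3 and 15.3 to 177 and 172 TMM-scaled CPM (log2 1.92 ± 0.36, edgeR adjusted p 0.00334), with 14.5% of 8888 genes called (8.57% higher and 5.97% lower). The NCD values rest on 12 and 2 UMIs, and the rise was 3.54 without NCD replicate 1 and 1.31 without NCD replicate 2. The number of NCD macrophage-like cells depended on the cell filter. It was 67 and 52 here, 443 and 251 with up to 20% mitochondrial UMIs, and 247 and 167 with at least 500 genes per cell. In MCD it was 242 and 209, 280 and 238, and 330 and 274. Treml4 was at 46.9 and 53.6 in NCD and 105 and 102 in MCD, a log2 rise of 1.06 ± 0.31 (adjusted p 0.0344) that was lost in 9 of 16 alternatives. Trem1 had 1 and 0 UMIs in NCD and 56 and 84 in MCD, and Trem3 0 and 3 in NCD and 121 and 101 in MCD, and neither passed (adjusted p 0.205 and 0.227). Tyrobp, at 1782 and 1523 in NCD and 2047 and 2055 in MCD, did not pass (log2 0.31 ± 0.15, adjusted p 0.185). Diet and macrophage class cannot be told apart here, since the NCD cells are nearly all of one class and the MCD cells of the other.

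**Figure D4:**
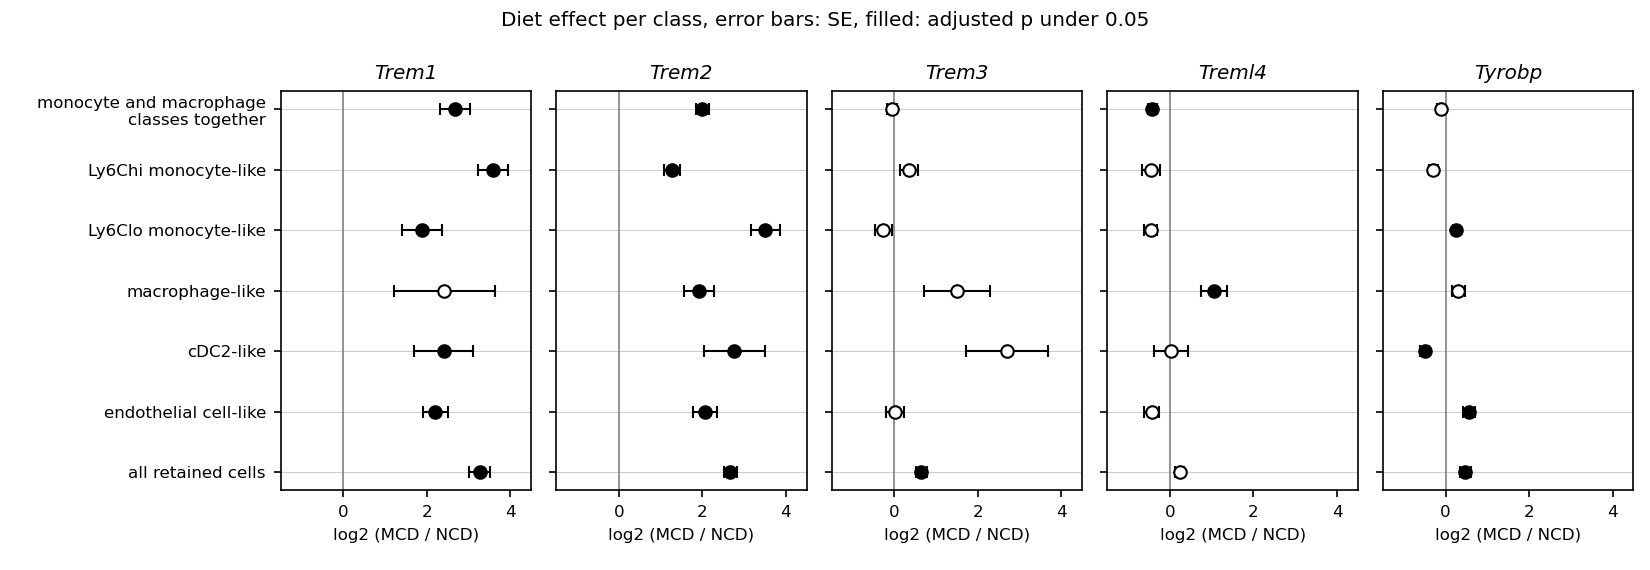
Log2 difference of MCD over NCD for each gene in 7 comparisons, with SE bars, filled where the edgeR adjusted p was under 0.05. Trem1 and Trem2 lie to the right of 0 in all 7, while Treml4 lies between -0.46 and 1.06 and Tyrobp between -0.50 and 0.56.

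Outside the monocyte and macrophage classes, Trem1 and Trem2 passed as higher in MCD in cDC2-like and endothelial cell-like cells. In cDC2-like cells Trem1 had 2 and 1 UMIs in NCD and 48 and 112 in MCD, and Trem2 2 and 0 against 59 and 76, log2 rises of 2.41 ± 0.71 and 2.77 ± 0.74 (edgeR adjusted p 0.0210 and 0.0128, 29.6% of 9202 genes called, 14.9% higher and 14.7% lower). In MCD these are levels of 10.5 and 17.7 CPM for Trem1 and 12.9 and 12.02 CPM for Trem2, below those of both monocyte-like classes in the same libraries. B cell-like cells of the MCD libraries, read as background, stood at 0 and 11.97 CPM for Trem1 and 30.5 and 11.97 CPM for Trem2. The Trem2 values rest on 6 and 2 UMIs. The cDC2-like level of Trem2 lay below the B cell-like level in MCD replicate 1 and about level with it in MCD replicate 2. Migratory DC-like cells of MCD held less Trem2, 5.63 and 1.85 CPM, from 6 and 3 UMIs. Whether the cDC2-like levels of Trem2 stand above background was not tested. The calls were lost in 6 of 15 (Trem1) and 2 of 14 (Trem2) alternatives, among them the loss of NCD replicate 1 (adjusted p 0.0907), NCD replicate 2 (0.131) or MCD replicate 2 (0.142) for Trem1. Without NCD replicate 2 the Trem2 difference was 1.86 (adjusted p 0.0920), and without NCD replicate 1 no NCD UMI is left to set a size. Lipid-associated macrophage markers summed to 541 and 538 CPM in NCD and 2070.3 and 2094 CPM in MCD cDC2-like cells, with at most 3 of 12 at 0, and Ly6Chi monocyte markers to 4052 and 3727 CPM in NCD and 5687 and 6285 CPM in MCD. Their part was not tested. Of the MCD cDC2-like cells 99.1% lay in cluster 4, and of the NCD ones 96.9% in cluster 6.
Tyrobp fell in cDC2-like cells, from 2050.1 and 2042 to 1410.5 and 1475 TMM-scaled CPM (log2 -0.50 ± 0.10, adjusted p 0.00235), but was 0.11 with library totals and missed the threshold without MCD replicate 1 (adjusted p 0.0724). Trem3 (0 and 1 UMIs in NCD, 28 and 38 in MCD) and Treml4 (6 and 14, 72 and 130) did not pass (adjusted p 0.0532 and 0.963).
In endothelial cell-like cells, a class that also held leukocyte transcripts (Ptprc at 616 to 1168 CPM, Itgam at 180 to 245 CPM and the Ly6Clo monocyte gene Ace at 103 to 235 CPM), Trem1 went from 6.47 and 7.26 to 27.2 and 35.7 TMM-scaled CPM (log2 2.21 ± 0.31). Trem2 went from 6.47 and 11.2 to 41.9 and 36.7 (log2 2.07 ± 0.29). Both had an edgeR adjusted p of 0.000345, with 30.5% of 9559 genes called (16.6% higher and 13.9% lower). Tyrobp rose there from 959 and 875 to 1347 and 1352 (log2 0.56 ± 0.13, adjusted p 0.00807), and Trem3 and Treml4 did not pass (adjusted p 0.985 and 0.0715). The part of the leukocyte transcripts in these results was not tested. Cluster 11 held 88.0% of the MCD cells and cluster 5 held 99.5% of the NCD cells of this class.
Eosinophil-like cells had no Trem1 UMI in NCD, where 3 UMIs would amount to 29.9 and 94.3 CPM, and 42 and 33 UMIs in MCD, and Trem1 did not pass (edgeR adjusted p 0.165). Tyrobp rose in them from 973 and 785 to 1834 and 2125 TMM-scaled CPM, a log2 rise of 1.12 ± 0.21 (adjusted p 0.00954), in a comparison in which 2.42% of 5206 genes were called (1.56% higher and 0.864% lower). In migratory DC-like cells the receptors had 0 to 17 UMIs per library, and Tyrobp, the only gene of the 5 that could be tested, was at 1074 and 678 in NCD and 902 and 1077 in MCD (log2 0.13 ± 0.20, adjusted p 0.751, 8.94% of 5559 genes called, 4.93% higher and 4.01% lower).
Over all retained cells, where the makeup of the sort counts as well, 4 of the 5 genes rose and 49.0% of 12717 genes were called (26.1% higher and 22.9% lower). Trem1 stood at 5.49 and 6.15 in NCD and 45.9 and 67.0 in MCD (log2 3.27 ± 0.25, adjusted p 0.000481), and Trem2 at 12.5 and 10.6 in NCD and 79.8 and 67.4 in MCD (log2 2.68 ± 0.15, adjusted p 0.000374). Trem3 (0.65 ± 0.12, adjusted p 0.00602) and Tyrobp (0.47 ± 0.13, adjusted p 0.0217) had smaller rises, and Treml4 did not pass (0.23 ± 0.10, adjusted p 0.106). The Tyrobp call was lost in 5 of 16 alternatives, among them the loss of MCD replicate 1 (adjusted p 0.205) or MCD replicate 2 (0.167), and the difference was -0.060 with cells thinned to 1000 UMIs. Lipid-associated macrophage-like cells were 8.14 and 6.63% of the cells and held 27.2 and 24.4% of the Trem2 UMIs in MCD. Ly6Chi monocyte-like cells held 45.7 and 48.9% of the Trem1 UMIs.

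The share of cells with a transcript was compared at 1000 UMIs per cell, because MCD cells were deeper (median UMIs of 1961 and 2004 in NCD and 13548.5 and 12793 in MCD Ly6Chi monocyte-like cells). Shallower cells were left out, 1 to 3 per library in each monocyte-like class. In Ly6Chi monocyte-like cells Trem1 was seen in 2 of 441 and 3 of 461 NCD cells and in 42 of 651 and 91 of 871 MCD cells, which is 0.454 and 0.651% against 6.45 and 10.4%. In Ly6Clo monocyte-like cells Trem2 was seen in 0 of 169 cells, which allows up to 1.78% of cells with a UMI at this depth (3 counts), and in 1.08% of NCD cells, against 9.40 and 7.93% of MCD cells. Unthinned, 2.94 and 1.59% of these NCD cells had a Trem2 UMI. The diets did not overlap in either case, and with 2 libraries per diet the exact permutation test cannot give a two-sided p below 0.3333, the value found.
Background was read from cells that should lack Trem1 and Trem2. B cell-like cells of MCD (median 4015 and 4130.5 UMIs) had Trem1 in 0 of 29 and 0 of 30 cells and Trem2 in 1 of 29 and 0 of 30. Basophil-like cells of NCD (median 1177 and 1214 UMIs) had Trem2 in 0 of 24 and 0 of 60 and Trem1 in 0 of 24 and 1 of 60, and the NCD shares of Trem1 in Ly6Chi monocyte-like cells lay between these 2 shares. At 1000 UMIs per cell, Trem2 was seen in a mean of 2.44% of NCD and 7.25% of MCD Ly6Chi monocyte-like cells. Unthinned, the shares were 4.29 and 5.18% in NCD and 54.1 and 47.2% in MCD. The unthinned shares also carry the difference in depth and cannot be compared between the diets. Tyrobp was seen in 91.1 to 96.5% of Ly6Chi and 82.8 to 93.0% of Ly6Clo monocyte-like cells at equal depth.

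At 5000 UMIs per cell, a depth that only MCD cells reach in number, cells with both Trem1 and Trem2 were about as many as the product of the shares gives. In Ly6Chi monocyte-like cells of the MCD libraries they numbered 48 and 78, against products of 47.5 and 83.1, and in Ly6Clo monocyte-like cells 21 and 32, against 21.6 and 32.0. Cells with both Trem3 and Treml4 exceeded the product in all 6 class and library pairs examined, for instance 59 against 44.7 and 73 against 53.1 in Ly6Clo monocyte-like cells. The same held for Trem1 with Trem3 and for Trem1 with Treml4. In Ly6Chi monocyte-like cells of MCD replicate 1 these numbered 52 against 37.8 and 32 against 24.4. Among lipid-associated macrophage-like cells, those with both Trem1 and Trem3 numbered only 2 and 3, against 1.88 and 2.06, which is hardly an excess. Trem2 with Trem3 or with Treml4 exceeded the product in some classes and libraries and not in others. Cells of a library share its depth and free RNA, so these counts are a description with no test.

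Across 47 class and library profiles and 5478 genes, the genes whose levels moved most like each member were ranked by Pearson's r on a log2 scale. Trem1 was followed most closely by Hp (haptoglobin, 0.868) and Cd177, a neutrophil surface gene (0.843), and Trem2 by Slc15a3, a lysosomal peptide transporter (0.878), Plin2, a lipid droplet coat gene (0.873), and Apoe (0.861). Trem3 and Treml4 were nearest to each other (0.861). Tyrobp was nearest to Fcer1g, the adaptor of Fc receptors (0.798). The profiles share libraries, so these values are a description.

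Around the receptors, 89 genes of 8 pathway lists were in the files. In the combined classes, where 38.1% of all genes were called and the median log2 difference of all genes was 0.03, counts of genes called higher and lower were read against that share.
Of the proposed ligands, 3 of 11 tested rose and 5 fell (median log2 -0.32). Apoe, a lipoprotein that Trem2 binds, stood at 1307 and 1105 TMM-scaled CPM in NCD and 3115 and 4002 in MCD (log2 1.56 ± 0.13, edgeR adjusted p 6.64e-05), and Lgals3 rose from 641 and 624 to 1949 and 1914 (1.61 ± 0.09, adjusted p 7.39e-06). Pglyrp1, a proposed ligand of Trem1, fell from 148 and 141 to 44.8 and 61.8 (-1.44 ± 0.16, adjusted p 0.000259). Actb, whose protein is exposed on damaged cells, fell as well (-1.02 ± 0.07, adjusted p 2.37e-05).
Of the genes of receptor shedding and membrane partners, 4 of 11 rose and 3 fell (median -0.15). Adam10, a protease that can shed Trem2, fell from 164 and 135 to 87.0 and 86.3 (-0.79 ± 0.12, adjusted p 0.00107), and Adam17 did not pass (0.23 ± 0.13, adjusted p 0.179). Ms4a6b (-1.03 ± 0.10, adjusted p 0.000140) and Ms4a6c (-0.92 ± 0.10, adjusted p 0.000191), membrane genes of a family tied to Trem2 levels, fell. Psen2, of the gamma-secretase that cuts receptor stubs, rose (1.09 ± 0.21, adjusted p 0.00410), but not past the threshold without NCD replicate 2 (adjusted p 0.0796). Plxna1 rose (1.96 ± 0.53, adjusted p 0.0191), yet its difference was -0.14 without lipid-associated macrophage-like cells. Of the other receptors that use Tyrobp, 1 of 12 rose and 6 fell (median -0.61), among them near-identical gene copies (the Sirpb1, Klra and Pilrb families) whose reads the counting may split, so their values are uncertain. Sirpb1c was the one that rose (0.47 ± 0.12, adjusted p 0.0131), and the NK receptor genes Klra8 (-3.46 ± 0.66, adjusted p 0.00410) and Klrd1 (-1.82 ± 0.49, adjusted p 0.0201) fell most. With NCD replicate 2 left out, these 3 had adjusted p of 0.0888, 0.130 and 0.0692. Treml2, the single relative from the receptor cluster that could be tested, rose from 2.94 and 2.77 to 8.84 and 13.1 (1.94 ± 0.48, adjusted p 0.0128), but its adjusted p was 0.117 with NCD replicate 1 left out and 0.131 with NCD replicate 2 left out.
Of the other adaptors, Hcst did not pass (0.04 ± 0.13, adjusted p 0.816), and Fcer1g, which carries the same kind of tyrosine motif as Tyrobp, fell from 4075 and 3801 to 2085 and 2097 (-0.91 ± 0.08, adjusted p 7.38e-05). Of the proximal kinases and adaptors, 3 of 15 rose and 2 fell (median 0.18). Syk did not pass (0.13 ± 0.10, adjusted p 0.320), Vav1, an exchange factor, rose (1.12 ± 0.13, adjusted p 0.000341), and Fyn, a Src family kinase, fell (-1.27 ± 0.18, adjusted p 0.00101). The adaptor Shc1 rose (0.87 ± 0.19, adjusted p 0.00824; 0.0975 without NCD replicate 1), and the kinase Lyn fell (-0.55 ± 0.09, adjusted p 0.00201), a call lost with library totals (adjusted p 0.1403). Of the branches downstream of Syk, 4 of 17 rose and 2 fell (median 0.13). Akt1, a kinase of the PI3 kinase branch (1.41 ± 0.15, adjusted p 0.000222), and Malt1 (1.13 ± 0.14, adjusted p 0.000365) rose. Plcg2, the phospholipase of the pathway, did not pass (0.32 ± 0.12, adjusted p 0.0632). Nfatc1 (-0.49 ± 0.12, adjusted p 0.0112) and Ctnnb1 (-0.38 ± 0.12, adjusted p 0.0317) fell, but neither call held with library totals (adjusted p 0.490 and 0.975) or with either NCD library left out.
Of the brakes of the pathway, 7 of 12 rose and 2 fell (median 0.56). The adaptors Dok1 (1.35 ± 0.23, adjusted p 0.00219) and Dok3 (1.06 ± 0.12, adjusted p 0.000243) rose, Ptpn6, the phosphatase SHP-1, rose (0.65 ± 0.09, adjusted p 0.00108; 0.0854 with the GC trend removed), and Cblb, a ubiquitin ligase, fell (-0.86 ± 0.17, adjusted p 0.00464). Cbl fell slightly (-0.36 ± 0.09, adjusted p 0.0168), but was at 0.02 with library totals, and Inpp5d, a phosphatase that removes the PI3 kinase product, did not pass (0.33 ± 0.12, adjusted p 0.0595). The Cblb call did not hold with library totals (adjusted p 0.0571) or with either NCD library left out (0.0581 and 0.0956).
In Ly6Chi monocyte-like cells 6 of 12 brakes rose and 1 fell, against 15.4% of all genes called higher and 15.1% lower. In Ly6Clo monocyte-like cells 4 rose and 1 fell, against 11.5% and 10.3%. All 8 lists were chosen with earlier results of these data known, so the list counts are a description with no test.

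**Figure D5:**
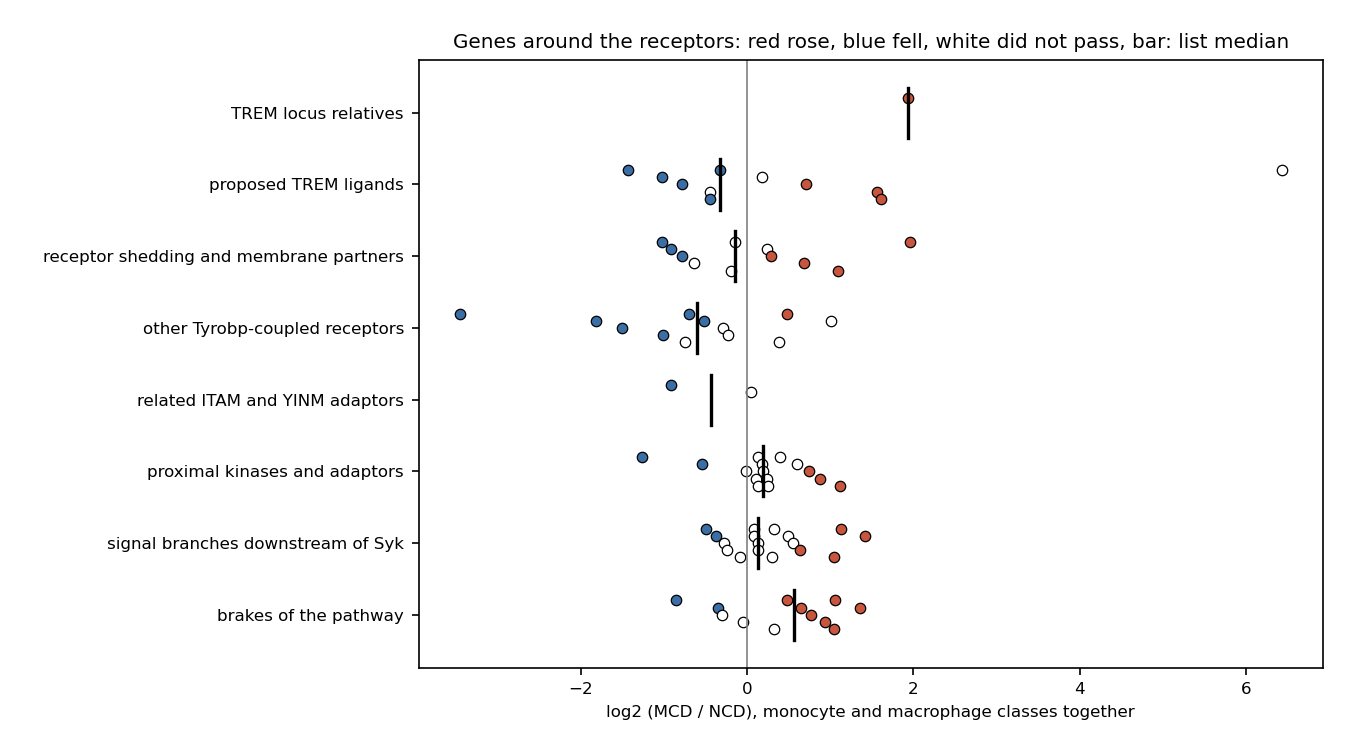
Log2 difference of MCD over NCD for each tested gene of the 8 pathway lists in the combined monocyte and macrophage classes, red where it rose, blue where it fell, white where it did not pass, with a bar at the list's median. The brakes of the pathway lie furthest to the right among the larger lists (median 0.56), other Tyrobp-coupled receptors to the left (median -0.61), and the ligand Clu at 6.43 had no UMI in NCD, so its fitted value is no measure of size.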

How the data were processed

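Single-cell 3′ libraries of sorted liver cells from mice on NCD or MCD food (2 libraries each) were used. Per the file headers the authors made the counts with Cell Ranger 3.0.2, and per the submitters' processing notes against mm10; the deposited counts are UMIs per gene and cell. The labels do not say that libraries are separate mice, so p-values measure only the spread between libraries.

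Cells with at least 200 genes, at most 10% mitochondrial UMIs and at most 1% hepatocyte UMIs were kept. They were clustered (scanpy 1.11.5, Leiden resolution 1, 2000 variable genes, 30 components) and named from marker lists without the 5 genes, none of which was among the 2000. Clustering settings were settled after clusters had been seen. No doublet caller was run. UMIs were summed per class and library and tested with edgeR 4.0.16 (quasi-likelihood F test, TMM, genes filtered by diet, Benjamini-Hochberg over all genes tested, threshold 0.05). Levels across classes are CPM of library totals; tested values are TMM-scaled CPM. Intervals are 95% exact binomial and cover counting error only. A floor is 3 counts.

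The members and lists were chosen with earlier results of these data known. In each pathway list, up to 2 genes called higher, 2 called lower and core genes are named. On simulated data, the combined comparison (10966 genes) recovered 64.2% of genes changed by 1 and 87.5% of those changed by 2 on the log2 scale. The class by diet term (9614 genes) recovered 7.37 and 61.1%. These are shares of the changed genes that passed the filter. For the class by diet term the simulated spread was assumed, the same for every gene, so its shares are not the power in these data. GC values were found for 10943 of the 10966 genes. DESeq2 1.42.0 served as an alternative.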

Additional observations from a re-analysis of the deposited data

Results flagged for a closer look

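The diet effects on 3 of the 5 genes differed between the monocyte-like classes in a test of the difference itself. The Ly6Clo effect minus the Ly6Chi effect on the log2 scale was -1.73 for Trem1 (edgeR adjusted p 0.0299), 2.23 for Trem2 (adjusted p 0.000127) and 0.52 for Tyrobp (adjusted p 9.67e-06). Of all 9614 genes tested, 6.58% were called. The Trem1 call was lost in 9 of 14 alternatives and the Trem2 call in 2 of 14, while that of Tyrobp held in all 14. For Trem1 the NCD values behind it are 3 and 8 UMIs in Ly6Chi and 9 and 9 UMIs in Ly6Clo monocyte-like cells, and for Trem2 they are 21 and 26 UMIs in Ly6Chi and 5 and 3 UMIs in Ly6Clo monocyte-like cells. Tyrobp rests on 932 to 2780 NCD UMIs.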

How the results depend on the processing

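The rises of Trem1 and Trem2 in the combined classes held under all 20 alternatives (log2 2.25 to 3.20 and 1.70 to 2.38), as did those in Ly6Chi monocyte-like cells under 16 and that of Trem2 in Ly6Clo monocyte-like cells under 15. Where a value below differs from the main one, the cause was not tested. Alternatives on lipid-associated macrophage-like cells, unnamed clusters, monocyte-like classes alone and equal class weights were chosen after seeing the data, as was the macrophage-like comparison. Leaving out a library leaves 1 in an arm, assumed to vary like the others. At Leiden resolution 0.5 no Ly6Clo comparison could be made. Mean levels of lipid-associated macrophage-like cells in MCD moved there, from 18.7 to 54.1 CPM for Trem1 and from 180 to 124 CPM for Trem2. Those of Trem3 went from 29.2 to 66.8 CPM and those of Treml4 from 107 to 143 CPM. Low NCD depth limits the receptors' NCD values.

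Counts of called genes moved as follows. With cells thinned to 1000 UMIs they were 2425 (combined), 1657 (Ly6Chi), 1094 (Ly6Clo), 578 (macrophage-like), 3485 (all cells), 1176 (cDC2-like), 642 (endothelial cell-like), 221 (migratory DC-like) and 267 (class by diet). With DESeq2 they were 1900 (Ly6Chi), 1212 (Ly6Clo), 1487 (cDC2-like), 1142 (endothelial cell-like), 65 (eosinophil-like), 302 (migratory DC-like) and 403 (class by diet). With sums thinned to the smallest library they were 693 (macrophage-like), 12 (eosinophil-like), 254 (migratory DC-like) and 296 (class by diet). The count was 3270 with up to 20% mitochondrial UMIs and 2639 with at least 500 genes for macrophage-like cells, 406 with 500 genes for the class by diet term, and 4564 with library totals for cDC2-like cells. With 1 library left out the counts ranged from 2166 to 3800 (combined), 1736 to 2561 (Ly6Chi), 417 to 1512 (Ly6Clo), 1702 to 2203 (cDC2-like), 1908 to 2744 (endothelial cell-like), 300 to 397 (migratory DC-like) and 366 to 505 (class by diet).

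In the combined classes the log2 difference of Trem3 was 0.32 with library totals, 0.036 with no filter, 0.073 with 20% mitochondrial UMIs, 0.063 with 500 genes, 0.22 at resolution 0.5, 0.047 without the 5% deepest cells, 0.11 without lipid-associated macrophage-like cells, 0.41 with unnamed clusters, 0.092 with equal weights, and -0.12 to 0.058 with 1 library left out. Treml4 was at -0.049 with totals, -0.33 with no filter, -0.11 with 20% mitochondrial UMIs, -0.23 with 500 genes, -0.12 at resolution 0.5, 0.21 with unnamed clusters, -0.17 with equal weights, and -0.47 to -0.36 with 1 library left out. Tyrobp was at 0.26 with totals, -0.51 with the GC trend removed, 0.028 with 20% mitochondrial UMIs, -0.25 thinned to 1000 UMIs, 0.077 with unnamed clusters and 0.059 with equal weights.

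Other signs turned. In Ly6Chi cells Treml4 was at 0.064 with totals and 0.70 at resolution 0.5, and Tyrobp at 0.23 with totals. In Ly6Clo cells Trem3 was at 0.0030 with totals and 0.044 with sums thinned, and Tyrobp at -0.16 with the GC trend removed. In macrophage-like cells Trem3 was at -0.26 with 20% mitochondrial UMIs and -0.13 with 500 genes, and Tyrobp at -0.21 with the GC trend removed and -0.061 with 500 genes. Over all cells Treml4 was at -0.0084 with the GC trend removed and -0.17 thinned, and Tyrobp at -0.044 and -0.060. In cDC2-like cells Trem3 was at -1.47 at resolution 0.5, Tyrobp at 0.11 with totals, and Treml4 at -0.016 with RLE factors, -0.075 with the GC trend removed, -0.14 with 20% mitochondrial UMIs, -3.43e-05 with 500 genes, -0.32 at resolution 0.5, -0.21 without the deepest cells and -0.54 to 0.85 with 1 library left out. In endothelial cell-like cells Trem3 was at -0.021 with DESeq2, -0.0097 with RLE factors and -0.11 to 0.075 with 1 library left out. Treml4 in eosinophil-like cells ran from -0.91 to 7.23 with 1 library left out, Tyrobp in migratory DC-like cells from -0.012 to 0.70 and was -0.22 with the GC trend removed, and the class by diet term of Treml4 from -0.33 to 0.32 and was 0.019 with sums thinned. In detection, the MCD minus NCD share of Trem3 in Ly6Clo cells was -3.12 percentage points with 20% mitochondrial UMIs, and at 500 UMIs that of Treml4 was -0.21 in the combined classes and -0.43 in Ly6Chi cells.

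The deviations of same-numbered libraries from the mean of their diet had a correlation of 0.0712 (r, over 4975 genes). With 2 libraries per diet this is a single value that cannot decide whether they were paired, so the meaning of the numbers was not settled. With the replicate block the counts of called genes were 4530 (combined), 3306 (Ly6Chi), 2608 (Ly6Clo), 1014 (macrophage-like), 7245 (all cells), 2975 (cDC2-like), 3414 (endothelial cell-like), 177 (eosinophil-like) and 377 (migratory DC-like). With the block Treml4 passed in Ly6Clo (edgeR adjusted p 0.00605) and endothelial cell-like cells (0.0422), Trem3 passed in cDC2-like cells (0.0426), and Treml4 no longer passed in macrophage-like cells (0.0745).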
